A study of Mus musculus with 16 samples.

Results

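*Ppp2r1b*, *Cisd1*, *Atg12*, *Morf4l1* and *Tppp* were 5 genes whose liver RNA fell, besides *Fgfr4*, in mice on a high-fat diet (HFD) given an siRNA against *Fgfr4*. They were selected on the KD difference on HFD, as genes that were lower with knockdown (KD), among the 52143 genes of the count table, so their KD values on HFD are given here as a description with no test. The open questions were whether they also fell with the siRNA on chow and how they responded to the diet. All 5 passed the filter on low counts, as did 11324 genes in all.

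The 16 liver libraries came from male C57BL/6J mice, 6 weeks old at the start, that were fed chow or HFD for 12 weeks. Every 2 weeks they were injected with saline (Chow and HFD, 4 libraries each) or with the siRNA at 3 mg/kg (Chow/FGFR4 KD and HFD/FGFR4 KD, 4 libraries each). The siRNA carried N-acetylgalactosamine, a sugar that hepatocytes take up through the asialoglycoprotein receptor. Since saline and not a control siRNA was given to the other mice, an effect of any siRNA and an effect of losing FGFR4 cannot be told apart. Mice were housed 4 per cage and each group held 4 libraries, and the sources used here do not say whether a cage held a single group. Total counts per library ran from 3445949 to 5976449.

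In GRCm38, *Ppp2r1b* (ENSMUSG00000032058) lies on chromosome 9 from 50845301 to 50894229 on the plus strand, and *Morf4l1* (ENSMUSG00000062270) on the same chromosome from 90091665 to 90114774 on the minus strand. *Cisd1* (ENSMUSG00000037710) lies on chromosome 10 from 71330480 to 71344954 on the minus strand. *Atg12* (ENSMUSG00000032905) lies on chromosome 18 from 46730144 to 46741580 on the minus strand. *Tppp* (ENSMUSG00000021573) and *Fgfr4* (ENSMUSG00000005320) share chromosome 13, on the plus strand, from 74009407 to 74035753 and from 55152640 to 55168759. All 6 are protein-coding genes.

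FGFR4 is the receptor through which the gut hormone FGF15 restrains bile acid synthesis in hepatocytes. The 5 genes serve different parts of the cell. PPP2R1B is one of 2 scaffold subunits on which the phosphatase PP2A assembles its catalytic and regulatory subunits. CISD1, also known as mitoNEET, is an iron-sulfur protein of the outer mitochondrial membrane. ATG12 is a ubiquitin-like protein that is joined to ATG5 during the building of autophagosomes. MORF4L1, also known as MRG15, is a chromodomain protein of the NuA4 histone acetyltransferase and of Sin3 deacetylase complexes. TPPP binds tubulin, promotes its polymerization and is best known from oligodendrocytes.

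The sequence of the siRNA is not given in the sources used here, so no match of its seed was searched. The longest run of bases that each mRNA shares with the *Fgfr4* mRNA on the same strand was measured instead. It describes how alike the mRNAs are in sequence and not whether the siRNA can bind them. Runs of the longest length began at 2 places in *Ppp2r1b*, 3 in *Cisd1*, 7 in *Atg12*, 3 in *Morf4l1* and 6 in *Tppp*. The first along each mRNA is shown for 4 of the 5 genes.
*Ppp2r1b*: gaagaacatggc
*Cisd1*: tgctgctggc
*Morf4l1*: tacagtggctg
*Tppp*: ggggacaccag
The run was 12 bases in *Ppp2r1b*, 10 in *Cisd1* and 11 in each of *Atg12*, *Morf4l1* and *Tppp*. The median of the longest run over 10588 genes compared was 12 bases, and the longest of all was 28. None of the 5 mRNAs shared a longer run with *Fgfr4* than the median gene.

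The promoters of the genes were searched for short motifs. RefSeq had a promoter entry for 4 of the 5 genes, all but *Atg12*. In the 250 bases before the RefSeq start (GRCm38.p6), searched on both strands, the letters GGGCGG of a GC box occurred in 4 of 4 and in 32.7% of 32851 promoters. The share of G and C was 59.2% in *Ppp2r1b*, 67.6% in *Cisd1*, 54.0% in *Morf4l1* and 71.6% in *Tppp*. Each was above the median of 52.4% over all promoters, which were not limited to genes tested here. The letters CCAAT occurred in *Ppp2r1b* alone among them and in 33.9% of all promoters. The letters GCGCATGC of an NRF1 motif occurred in *Cisd1* alone among them and in 2.26% of all. CCGGAAG (ETS, in 6.91% of all), TGACGTCA (CRE, 1.55%) and CACGTG (E-box, 6.02%) occurred in none of the 4. Bases that annotated exons cover are left out of the sequences, and capitals mark a GC box or, in *Ppp2r1b*, also CCAAT, either of them on either strand. The RefSeq start of *Ppp2r1b* lies within the span of the gene given above.
*Ppp2r1b*, chr9:50856674-50856923, plus strand: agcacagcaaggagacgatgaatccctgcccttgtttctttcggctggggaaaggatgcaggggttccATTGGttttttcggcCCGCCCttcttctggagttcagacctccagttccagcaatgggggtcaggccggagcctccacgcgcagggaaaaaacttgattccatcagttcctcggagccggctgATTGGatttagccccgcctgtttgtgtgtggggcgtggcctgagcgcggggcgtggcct
*Cisd1*, chr10:71344955-71345099, minus strand: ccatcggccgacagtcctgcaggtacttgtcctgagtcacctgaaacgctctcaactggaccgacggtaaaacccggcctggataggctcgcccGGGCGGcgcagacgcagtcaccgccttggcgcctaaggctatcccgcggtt
*Morf4l1*, chr9:90114821-90115070, minus strand: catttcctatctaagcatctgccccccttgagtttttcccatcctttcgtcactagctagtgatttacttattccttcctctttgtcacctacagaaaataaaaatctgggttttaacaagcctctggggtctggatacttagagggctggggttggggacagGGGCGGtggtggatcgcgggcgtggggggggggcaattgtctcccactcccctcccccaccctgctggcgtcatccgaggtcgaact
The NRF1 letters of *Cisd1* lay in an annotated exon 69 bases before the RefSeq start, in the window ttggaccagctGCGCATGCGCgactctacc (chr10:71344900-71344929, minus strand, capitals for the motif and its overlapping reverse copy). These matches describe letters in a window.

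The siRNA target was examined first. *Fgfr4* was at 27.9, 25.8, 36.3 and 28.9 CPM (counts scaled to library size) in the 4 Chow libraries and at 5.95, 6.17, 4.24 and 2.76 CPM in those with KD. HFD libraries had 30.1, 28.6, 21.8 and 22.4 CPM without KD and 2.82, 2.43, 5.31 and 4.40 CPM with it. Every treated library lay below every control library. In limma-voom its log2 difference between KD and saline was -2.62 on chow (SE 0.263, adjusted p 0.000223) and -2.78 on HFD (SE 0.27, adjusted p 9.06e-05). A call here needs an unadjusted p under 0.05 and a Benjamini-Hochberg adjusted p under 0.25, as in the methods of the study.

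HFD/FGFR4 KD 1 stood nearer to the chow libraries than to the rest of its group. On the first principal component of the 500 most variable genes it was at -6.33, where the other HFD libraries were between 5.97 and 30.4 and the chow libraries between -23.19 and -4.84. Without it the log2 differences with KD on HFD were -0.81 for *Ppp2r1b*, -0.86 for *Cisd1*, -0.70 for *Atg12*, -0.63 for *Morf4l1* and -1.22 for *Tppp*. A single gene, Gm42418, took 11.1% to 22.7% of the counts of a library. Per the study's own description each library was from a different mouse, so p-values measure the spread between mice.

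*Ppp2r1b*, the PP2A scaffold, was at 16.4, 13.6, 22.7 and 16.3 CPM in Chow and at 14.5, 18.3, 15.1 and 15.7 CPM in Chow/FGFR4 KD. The chow groups overlapped, and Chow 3 was the highest of the 8 chow libraries. On HFD it was at 25.4, 22.9, 25.3 and 23 CPM in saline-injected mice and at 12.8, 13.3, 13 and 15.3 CPM with KD. The HFD libraries were the highest 4 of all 16, as in 0.945% of all genes, and the 4 HFD/FGFR4 KD libraries lay far below them. That order rests in part on the contrast that chose the gene.

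*Cisd1*, the mitochondrial iron-sulfur protein, was at 74.2, 87.4, 93.7 and 92.6 CPM in Chow and at 78.9, 70.6, 67.2 and 50.5 CPM in Chow/FGFR4 KD. Of these KD libraries 3 lay below every Chow library and the remaining one above Chow 1. On HFD it was at 100, 106, 108 and 105 CPM without KD and at 58.7, 53.6, 76.7 and 45.1 CPM with KD. Again the HFD libraries were the highest 4 of 16, as in 0.945% of all genes. They did not overlap with the HFD/FGFR4 KD libraries, which lay below them as in 3.33% of all genes. As for *Ppp2r1b*, this order rests in part on the contrast that chose the gene.

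*Atg12*, the ubiquitin-like autophagy protein, was at 24.4, 24.8, 23.5 and 23.9 CPM in Chow and at 25.4, 21, 24.8 and 18.2 CPM in Chow/FGFR4 KD. KD libraries lay on both sides of the narrow Chow range. On HFD it was at 29.1, 27.1, 29 and 24 CPM without KD and at 16.7, 17.9, 18.6 and 13.5 CPM with KD. Without KD 3 of the 4 HFD libraries were above all Chow libraries, and with KD all 4 were below them, which held for 4.72% of all genes.

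*Morf4l1*, the chromodomain protein, was at 120, 121, 120 and 123 CPM in Chow and at 115, 115, 107 and 94 CPM in Chow/FGFR4 KD. All KD libraries lay below all Chow libraries, by a small margin. On HFD it was at 102, 110, 110 and 115 CPM without KD and at 83.8, 60.8, 90.1 and 62 CPM with KD. All 4 HFD libraries lay below all 4 Chow libraries, as in 7.76% of all genes, whereas in *Ppp2r1b*, *Cisd1* and *Tppp* they lay above, as in 8.33%.

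*Tppp*, the tubulin-binding protein, rested on 15 to 179 counts per library. It was at 7.79, 5.74, 8.11 and 11.6 CPM in Chow and at 8.13, 6.17, 7.87 and 4.14 CPM in Chow/FGFR4 KD. The HFD libraries, at 18.3, 13.1, 27.4 and 17.2 CPM, were the most spread and the highest 4 of 16, as in 0.945% of all genes. Here too the order rests in part on the contrast that chose the gene. With KD on HFD the values, 5.85, 9.29, 6.97 and 7.77 CPM, lay within the range of the Chow libraries.

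**Figure D1:**
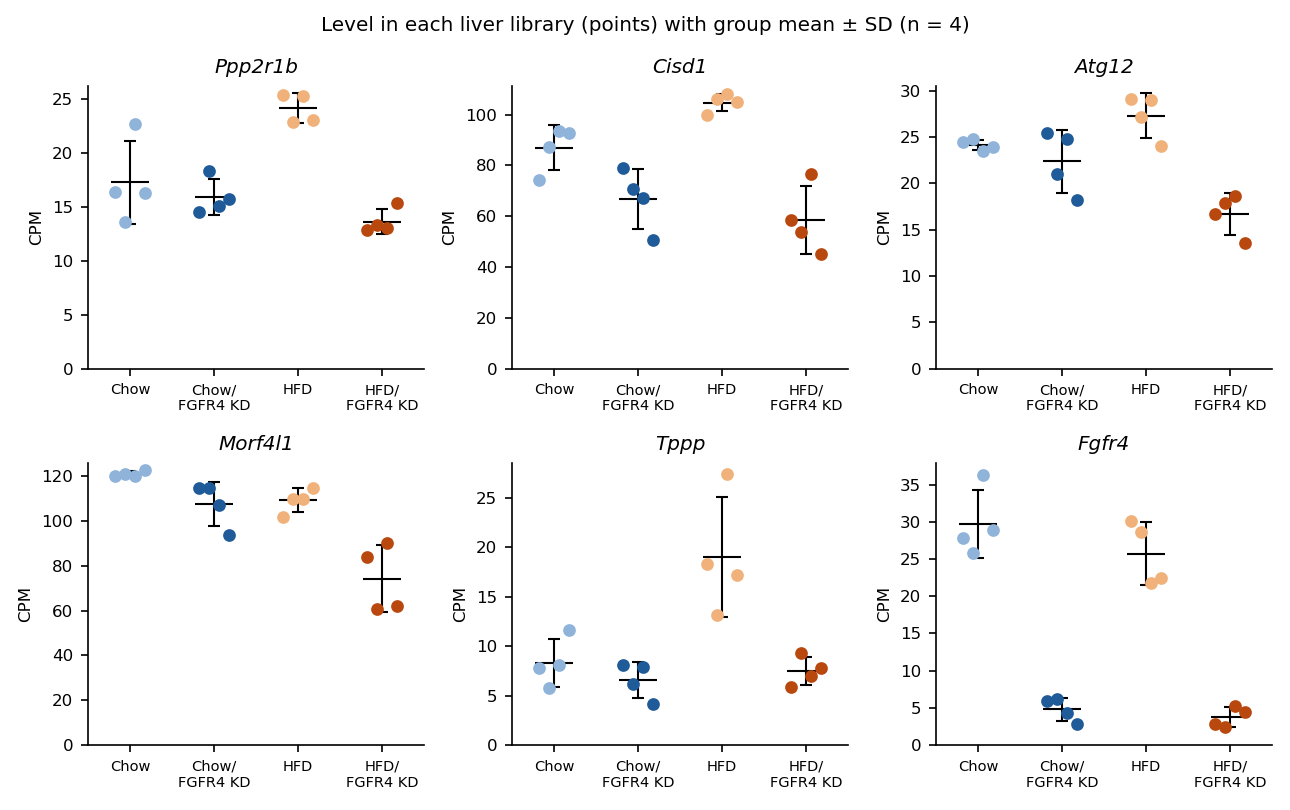
Level of the 5 genes and of *Fgfr4* in each liver library, in CPM on axes that start at 0, by group, with points for libraries and bars for the mean ± SD (n = 4). In all 5 genes the 4 HFD/FGFR4 KD libraries lie below the 4 HFD libraries, which is the contrast that chose them. The 2 chow groups overlap in all but *Morf4l1*.

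The KD values on HFD, which chose the genes, are summarized as follows. The mean of *Ppp2r1b* was 24.1 ± 1.37 CPM (SD, n = 4) without and 13.6 ± 1.16 CPM with KD, a log2 difference of -0.84 (SE 0.13). *Cisd1* was at 105 ± 3.5 and 58.5 ± 13.4 CPM, with a log2 difference of -0.85 (SE 0.143). *Atg12* was at 27.3 ± 2.37 and 16.7 ± 2.27 CPM, with -0.70 (SE 0.119). For *Morf4l1* the means were 109 ± 5.53 and 74.2 ± 15 CPM, with -0.57 (SE 0.112), and for *Tppp* 19 ± 6.06 and 7.47 ± 1.45 CPM, with -1.32 (SE 0.251). The remaining level was thus between 40.1% (*Tppp*) and 67.4% (*Morf4l1*) of that in saline-injected mice on HFD, beside 14.6% for *Fgfr4*.

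Over all genes tested, 3.14% were called with KD on HFD and 1.64% were called lower, and in 3.33% the 4 KD libraries lay below all 4 HFD libraries. All 5 genes were in both sets because they were selected for that contrast. Ordered by the moderated statistic, they were the genes with the 3rd (*Ppp2r1b*), 4th (*Cisd1*), 6th (*Atg12*), 10th (*Tppp*) and 12th (*Morf4l1*) lowest value. The selection was not complete at any rank, since *Ndufa5*, a subunit of respiratory complex I, stood 2nd and *Hadhb*, of mitochondrial fatty acid oxidation, stood 5th. Just outside it, *Usp18*, 13th, had a log2 difference of -1.30 and *Ugp2*, 14th, one of -0.58.

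On chow none of the 5 genes was called lower with KD (0 of 5), where 1 of 11324 genes was called at all, 0.00883% in either direction and 0.00883% lower, and that gene was *Fgfr4*. EdgeR's quasi-likelihood test and DESeq2 also called 0 of the 5. At an unadjusted p under 0.05, *Cisd1* was the only one of the 5 below its control, beside 1.93% of all genes. Its mean went from 87 ± 8.93 to 66.8 ± 12 CPM, to 76.6% of Chow (95% interval 61.9 to 94.9), with a log2 difference of -0.38 (SE 0.146, limma-voom p 0.0176, adjusted p 0.976).

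The other 4 genes had smaller log2 differences or wider intervals on chow. *Morf4l1* went from 121 ± 1.3 to 108 ± 9.87 CPM, with a log2 difference of -0.17 (95% interval -0.41 to 0.07). It was the only one of the 5 whose chow libraries did not overlap, which 1.18% of all genes did in that direction. *Ppp2r1b* went from 17.3 ± 3.87 to 15.9 ± 1.67 CPM, with -0.11 (-0.41 to 0.19). *Atg12* went from 24.2 ± 0.549 to 22.4 ± 3.38 CPM, with -0.12 (-0.37 to 0.14). *Tppp* went from 8.31 ± 2.43 to 6.58 ± 1.85 CPM, with -0.32 (-0.99 to 0.35). The adjusted p of limma-voom was 0.976 for each of the 4.

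The intervals say which falls the chow libraries still allowed. The remaining level on chow could be as low as 75.2% for *Ppp2r1b*, 77.3% for *Atg12*, 75.5% for *Morf4l1* and 50.2% for *Tppp* within the 95% interval. The estimates on HFD, 55.9%, 61.4%, 67.4% and 40.1% in the same order, were each below that bound, as was that of *Cisd1*, 55.3% beside 61.9%. Their own 95% intervals reached up to 67.7%, 73.1%, 79.5% and 57.9% in that order, and to 68.3% for *Cisd1*. The intervals of *Morf4l1*, *Tppp* and *Cisd1* thus overlapped between the diets. Selection on the HFD contrast can also make the HFD falls look larger than they are. Whether the KD effects differ between the diets was not tested, since the HFD effect chose the genes.

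All 5 chow estimates were below 0, as were 49.1% of those of all genes, and their median was -0.17 on the log2 scale against 0 over all genes. Among the 181 other genes called lower with KD on HFD, 123 had a chow estimate below 0 (68%), and their median was -0.06. The KD comparisons on HFD and chow share no library. For *Ppp2r1b* the sign turned without Chow 3, to 0.04. Chow/FGFR4 KD 4 was the lowest library of its group for *Cisd1*, *Atg12*, *Morf4l1*, *Tppp* and *Fgfr4* alike. Without it the log2 differences were -0.26 for *Cisd1*, -0.03 for *Atg12*, -0.11 for *Morf4l1* and -0.14 for *Tppp*.

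**Figure D2:**
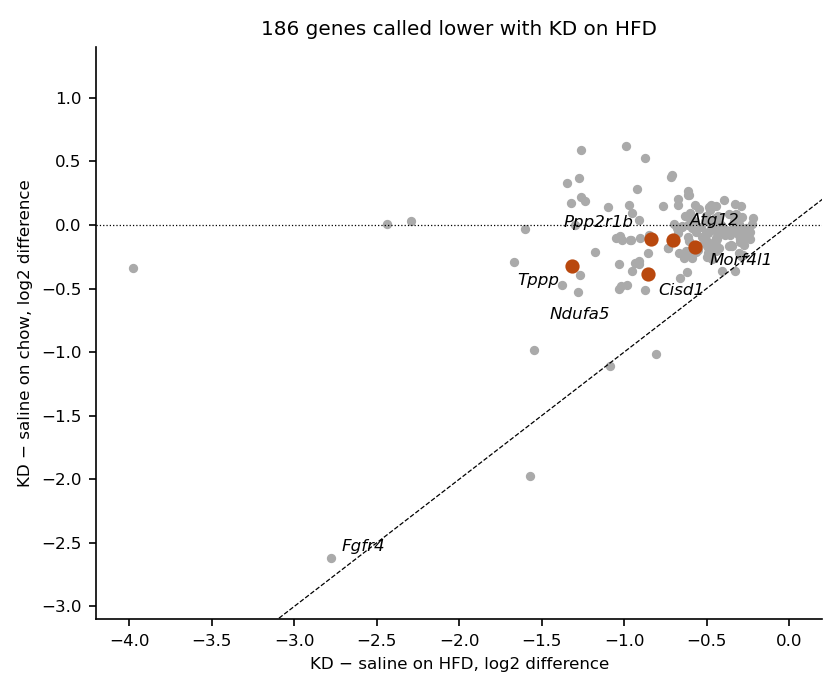
Log2 difference between KD and saline on HFD (x axis) and on chow (y axis) for the 186 genes called lower with KD on HFD, with the 5 genes in orange, the others in grey and a dashed line of equal values. *Fgfr4* lies close to the line at -2.78 and -2.62, and the 5 genes lie between it and 0 on the chow axis, from -0.11 to -0.38.

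The response to diet was tested on the mean of both HFD groups against the mean of both chow groups. The difference between KD and saline on HFD does not set this contrast, but a change in 1 HFD group alone enters it in part. In simulated counts, genes raised 2-fold in 1 HFD group had a mean diet estimate of 0.51 on the log2 scale. The fall that chose the genes is therefore part of these values. Of the 5 genes, 1 was called higher and 1 lower, where 16.8% of all genes were called higher, 16.4% lower and 33.2% in either direction. *Tppp* was higher on HFD, at a mean of 13.2 against 7.44 CPM, by 0.67 on the log2 scale (SE 0.203, adjusted p 0.0296). That difference came mostly from saline-injected mice, at 1.17, whose HFD libraries took part in choosing the gene. In mice given the siRNA it was 0.17 (95% interval -0.5 to 0.85). *Morf4l1* was lower, at 91.7 against 114 CPM, by -0.35 (SE 0.0792, adjusted p 0.00653). Its diet difference was -0.15 in saline-injected mice (95% interval -0.38 to 0.08) and -0.55 in mice given the siRNA. Over the alternatives the adjusted p ran from 0.00678 to 0.0656 for *Tppp* and from 0.00108 to 0.268 for *Morf4l1*. The highest value for *Morf4l1* came from scaling by library totals alone, which ended its call at a log2 difference of -0.13 and moved the median of all genes to 0.21.

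The other 3 genes were not called with diet. *Ppp2r1b* differed by 0.13 (95% interval -0.08 to 0.33, adjusted p 0.373), *Cisd1* by 0.04 (-0.17 to 0.26, adjusted p 0.813) and *Atg12* by -0.12 (-0.29 to 0.06, adjusted p 0.361). Library totals alone gave 0.35 for *Ppp2r1b* and 0.26 for *Cisd1*, both then called, and 0.10 for *Atg12*, each to be read against that median of 0.21. Without Chow 3, *Ppp2r1b* was called at 0.20 (adjusted p 0.0965, in a range from 0.0513 to 0.603 over the alternatives).

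Within each treatment the diet values share libraries with the choice of the genes and are given without a test. Choosing genes lower in HFD/FGFR4 KD than in HFD favours higher diet values in saline-injected mice. It favours lower ones in mice given the siRNA. In saline-injected mice 4 of the 5 genes were higher on HFD than on chow, where 49.1% of all genes had an estimate below 0. These were *Ppp2r1b* at 0.49 (SE 0.125), *Cisd1* at 0.28 (SE 0.14), *Atg12* at 0.18 (SE 0.112) and *Tppp* at 1.17 (SE 0.248). *Morf4l1* had a difference of -0.15 (SE 0.11). In mice given the siRNA the diet difference was below 0 in 4 of the 5 genes, beside 51.2% of all genes. It was -0.24 (SE 0.146) for *Ppp2r1b*, -0.19 (SE 0.149) for *Cisd1*, -0.41 (SE 0.128) for *Atg12* and -0.55 (SE 0.114) for *Morf4l1*. For *Tppp* it was 0.17 (SE 0.32).

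Levels in HFD/FGFR4 KD are also given against Chow with no test, since these libraries helped to choose the genes. *Tppp* was at 90.3% of its Chow level (95% interval 58.5 to 139), an interval that includes the estimates of the other 4 genes. *Ppp2r1b* was at 78.6% (63.8 to 96.7), *Cisd1* at 67% (54.1 to 82.9), *Atg12* at 69.5% (57.9 to 83.4) and *Morf4l1* at 60.8% (51.5 to 71.7). In *Atg12* and *Morf4l1* all 4 HFD/FGFR4 KD libraries lay below all 4 Chow libraries, beside the 4.72% of all genes given above, and in *Ppp2r1b* and *Cisd1* 3 of 4 did.

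**Figure D3:**
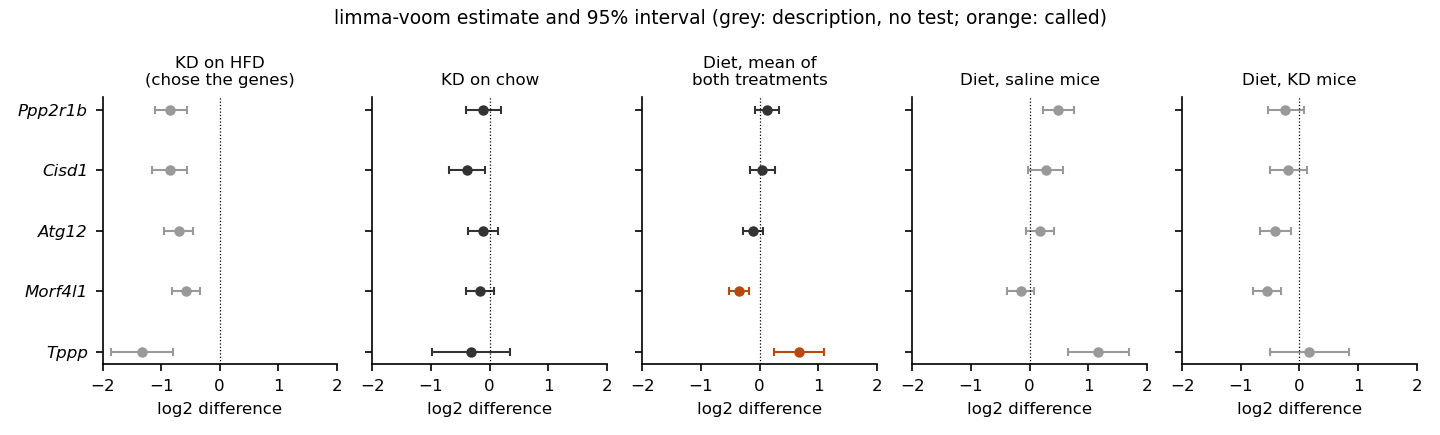
Log2 differences from limma-voom with 95% intervals for the 5 genes in 5 comparisons, where grey marks values given without a test, black tested genes that were not called and orange called genes. With diet averaged over both treatments, *Tppp* lies above 0 at 0.67 and *Morf4l1* below it at -0.35, and on chow every KD interval except that of *Cisd1* includes 0.

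The paralogs of the 5 genes were examined next, as proteins of the same kind. Levels between genes are compared per kilobase of the longest coding transcript, which is approximate where several isoforms are made. *Ppp2r1a*, the other PP2A scaffold, was at 16.7 ± 3.22 CPM per kilobase in Chow, 18.4 ± 1.19 in HFD and 17.4 ± 0.734 in HFD/FGFR4 KD, above *Ppp2r1b* at 4.73 ± 1.06, 6.62 ± 0.376 and 3.72 ± 0.318. It was not called in any comparison, with a log2 difference of -0.08 (95% interval -0.32 to 0.16) for KD on HFD. The share of *Ppp2r1b* in the sum of both scaffolds per kilobase was 26.5% ± 0.452 in HFD and 17.6% ± 1.14 in HFD/FGFR4 KD. That drop restates the fall that chose *Ppp2r1b* and is not separate evidence. On chow the share was 22.2% ± 3.18 without and 20.9% ± 2.93 with KD.

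*Cisd2*, the endoplasmic reticulum relative of *Cisd1*, had a log2 difference of 0.16 (95% interval -0.07 to 0.39) with KD on HFD. *Cisd3*, of the mitochondrial matrix, was at 32.7 ± 3.97 CPM in HFD and 26.2 ± 3.46 CPM with KD, a log2 difference of -0.33 that was not called (SE 0.139, adjusted p 0.385). With diet *Cisd3* rose by 0.47 (SE 0.107, adjusted p 0.00609), and 6 of 8 HFD libraries were above all 8 chow libraries. *Morf4l2*, the close relative of *Morf4l1*, had differences of 0.09 (-0.17 to 0.36) with KD on HFD and 0.21 (-0.06 to 0.47) on chow. *Tppp3* did not pass the filter and was not tested. None of the 4 paralogs tested was called with KD on either diet.

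Direct partners were read in the same way. *Ppp2ca* and *Ppp2cb*, the catalytic subunits of PP2A, had log2 differences of 0.05 (SE 0.0906) and 0.25 (SE 0.145) with KD on HFD. In the conjugation system of ATG12, its acceptor *Atg5* differed by -0.04 (SE 0.116), the activating enzyme *Atg7* by -0.25 (SE 0.105, adjusted p 0.374), the conjugating enzyme *Atg10* by -0.54 (SE 0.314), *Atg16l1* by -0.03 (SE 0.125) and *Atg3*, which serves the LC3 branch, by 0.07 (SE 0.0857). *Mrgbp*, which binds MORF4L1 in NuA4, differed by 0.07 (SE 0.268). None of these 8 partners was called in any of the 3 comparisons tested.

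**Figure D4:**
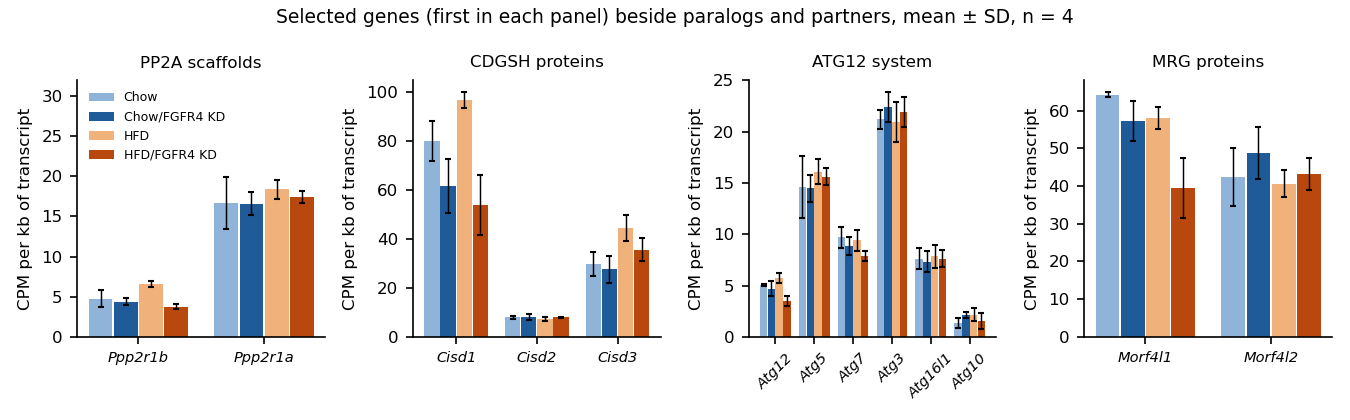
Mean level ± SD (n = 4) in CPM per kilobase of the longest coding transcript, by group, for *Ppp2r1b*, *Cisd1*, *Atg12* and *Morf4l1*, each first in its panel, beside paralogs or partners. The light and dark orange bars, HFD without and with KD, stand at 6.62 and 3.72 for *Ppp2r1b* beside 18.4 and 17.4 for *Ppp2r1a*, and at 58 and 39.4 for *Morf4l1* beside 40.6 and 43.2 for *Morf4l2*.

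Wider lists of the pathways of the 5 genes were counted without these 5. Of 127 genes tested on 5 lists, 3 were called with KD on HFD, all lower, which is 2.36% beside 3.14% of all genes. *Iscu*, the scaffold on which iron-sulfur clusters are built, fell by 0.33 on the log2 scale (SE 0.0797, adjusted p 0.101), from 64 ± 3.23 to 50.9 ± 3.48 CPM, and was 1 of 21 on the list of iron-sulfur genes. *Ppp2r2d*, a regulatory subunit of PP2A, fell by 0.43 (SE 0.14, adjusted p 0.248) and was 1 of 24. *Meaf6*, a subunit of NuA4, fell by 0.55 (SE 0.168, adjusted p 0.211) and was 1 of 25. These 3 calls were not stable, since none was left at an adjusted p under 0.05, and the count was 0 without HFD 3 or HFD/FGFR4 KD 4, and 1 without HFD 1 or HFD 4. Of the 35 autophagy genes and the 22 microtubule genes 0 were called by limma-voom, with 2 and 3 at an unadjusted p under 0.05.

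With KD on chow 0 of the 127 list genes were called by limma-voom, edgeR or DESeq2, and 4 had an unadjusted p under 0.05. The medians of the 5 lists lay between -0.03 and 0.11 on the log2 scale on chow and between -0.10 and 0.05 on HFD, against 0 over all genes.

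With diet 28 of the 127 were called (22%, beside 33.2% of all genes), 9 higher and 19 lower. On the PP2A list 2 of 24 rose, among them *Arpp19*, an inhibitor of PP2A in mitosis, by 0.36 (SE 0.101, adjusted p 0.0205), and *Ensa*, its relative, by 0.20. On that list 4 fell, with *Strn* and *Strn3*, striatin subunits, at -0.34 and -0.35, and *Set*, a PP2A inhibitor, at -0.21. On the iron-sulfur list 4 of 21 rose and none fell. They included *Glrx5*, a glutaredoxin of cluster transfer, at 0.27, and *Nubpl*, which assembles clusters in complex I, at 0.30, next to *Cisd3*.

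The autophagy list had 1 of 35 genes higher, *Tecpr1*, of autophagosome maturation, by 0.60 (SE 0.153, adjusted p 0.0127). It had 6 lower, led by *Vmp1*, of early autophagosome formation, at -0.47, *Atg2b*, a lipid transfer protein, at -0.31 and *Atg16l2* at -0.56. Of the genes around MORF4L1, 1 of 25 was higher, *Brd8* at 0.32, and 6 were lower, with *Rbbp4* at -0.35, *Ep400* at -0.34 and *Epc2* at -0.26. On the microtubule list *Stmn1*, which destabilizes microtubules, was higher by 0.96 (SE 0.264, adjusted p 0.019), as was *Tppp* outside the count. The tubulins *Tuba4a*, *Tubb4b* and *Tubb5* were lower, at -0.72 (SE 0.0949, adjusted p 0.000169), -0.35 and -0.27. Of their 31-base words *Tuba4a* and *Tubb4b* shared 38.4% and 53% with other genes, so their reads may be split with these.

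The 5 genes varied together in part. Over the 16 libraries the correlation of log2 CPM between pairs ran from 0.18 (*Morf4l1* and *Tppp*) to 0.87 (*Cisd1* and *Atg12*), which includes the fall they were selected for. Within groups, after each group mean was taken away, *Cisd1* correlated with *Morf4l1* at 0.80 and with *Atg12* at 0.68, whereas *Ppp2r1b* had -0.31 with *Atg12* and -0.21 with *Morf4l1*. Over the 8 chow libraries alone, which the selection did not use, *Cisd1* and *Morf4l1* correlated at 0.93 and *Ppp2r1b* with the others between -0.20 and 0.24. Group means were not taken away there, so these values include the KD difference on chow. Chow/FGFR4 KD 4 was the lowest of the 8 for both *Cisd1* and *Morf4l1*, at 50.5 and 94 CPM. These are descriptions over 16 or 8 libraries that share a scaling factor within each library.

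The genes whose pattern was most like the mean of the 5, after each was standardized over 16 libraries, were *Abcg8* (r = 0.90), *Ttr* (0.89), *Ndufa5* (0.88), *Cs* (0.87) and *Hadhb* (0.87). The pattern includes the fall with KD on HFD that chose the 5, which favours other genes that fell there. All of these genes, with *Acsm3* and *Capns1* named below, were called lower with KD on HFD. *Abcg8*, a sterol exporter, was at 63.7 ± 7.61 CPM in HFD and 27.9 ± 5.9 CPM with KD, and at 45.2 ± 9.25 and 40.5 ± 14.6 CPM on chow. *Ttr*, transthyretin, a secreted hepatocyte protein, was at 4470 ± 577 and 3110 ± 189 CPM on HFD. *Cs*, citrate synthase, was at 120 ± 10.9 and 85.1 ± 8.33 CPM on HFD. The single most similar gene was *Acsm3* for *Ppp2r1b* (0.85), *Abcg8* for *Cisd1* (0.92), *Ttr* for *Atg12* (0.87), *Ndufa5* for *Morf4l1* (0.89) and *Capns1* for *Tppp* (0.90).

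Markers of cell types were read beside these results, since in whole liver fewer cells of a type and less RNA per cell cannot be told apart. The 8 hepatocyte markers summed to between 56600 and 77000 CPM in all libraries, with overlap of all 4 groups. Of 6 adipocyte markers, 2 passed the filter, and the sum of the list was 36.6 to 96.6 CPM in HFD, 9.32 to 31.6 CPM in HFD/FGFR4 KD, 2.10 to 25.6 CPM in Chow and 1.10 to 12.5 CPM in Chow/FGFR4 KD. It thus moved with KD on HFD as the 5 genes did, almost wholly through *Cidec*, a lipid droplet protein that fatty hepatocytes also express, and *Cfd*, while *Lep* was at 0 in all 16 libraries and *Adipoq* and *Plin1* each in 11. Its part in the fall of the 5 genes was not tested.

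The 6 stellate markers summed to 149 to 264 CPM in HFD and 105 to 180 CPM with KD, and to 75.8 to 131 CPM over the chow groups. The 8 macrophage markers summed to 96.9 to 179 CPM in HFD and 81.5 to 153 CPM with KD, above the 52.7 to 87.9 CPM of the chow groups except for HFD/FGFR4 KD 1. For *Tppp*, 6 markers of oligodendrocytes and Schwann cells were read, of which none passed the filter. Their sum was at most 3.32 CPM in any library, *Sox10* was at 0 in all 16, and *Mog* in 15. Sums of endothelial markers were between 68.4 and 122 CPM, of cholangiocyte markers between 14.4 and 92.5 CPM and of lymphocyte markers at most 3.04 CPM, with overlap of the groups.

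Clock genes moved with diet too and, in part, with KD on HFD. The 5 genes of the *Arntl* arm summed to 51.5 to 76.1 CPM in HFD and 87.9 to 135 CPM in HFD/FGFR4 KD, beside 146 to 236 CPM in the chow groups. The 9 genes of the opposite arm summed to 318 to 475 CPM in HFD and 311 to 379 CPM with KD, beside 170 to 284 CPM on chow. Their part in the results on the 5 genes was not tested.

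For 2 of the 5 genes a larger share of the transcript sequence also occurs in other genes, on either strand. *Ppp2r1b* shared 21.1% of the 31-base words of its transcripts, all with *Sik2*. *Sik2* itself was at 11.3 ± 1.72 CPM in HFD and 10.7 ± 1.66 CPM with KD. *Morf4l1* shared 25.9%, with 3049 other genes and most often with Gm26882. *Cisd1* shared 4.65%, with a pseudogene, *Atg12* shared 1.10%, and *Tppp* and *Fgfr4* shared none.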

How the data were processed

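RNA of 16 livers was sequenced. Per the labels reads were handled with fastp and kallisto on GRCm38, and the authors summed transcript estimates to genes with tximport, so the deposited values are expected counts (estimated counts) that need not be whole. The versions and the transcriptome release are not given in the sources used here. The labels and the methods of the study name different library kits, both for mRNA.

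Genes under 1 CPM in more than 4 libraries were left out. After TMM scaling in edgeR 4.0.16, limma-voom (limma 3.58.1, R 4.3.3) was fitted with a mean per group to all 16 libraries. CPM use the TMM factors, and log2 CPM a prior count of 2. The 5 genes, the gene lists and the tests were chosen with earlier results of these data known. KD on chow and diet averaged over treatments were tested, with p adjusted over all 11324 genes. The averaged diet contrast also holds the HFD libraries that chose the 5 genes. The remaining values of the 5 genes share libraries with their choice and carry no p. Genes named besides the 5 are *Fgfr4*, paralogs and partners, at most 3 rising and 3 falling called genes per list and comparison, and the genes most alike in pattern. *Usp18*, *Ugp2* and *Sik2* were named after their values were seen.

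As alternatives the edgeR quasi-likelihood test and, on rounded counts, DESeq2 1.42.0 were run, with other scalings, filters, weights and thresholds, only the groups compared, a replicate block, and leaving out each library. In simulated counts for KD on HFD over 11324 genes, 83% of 200 genes changed 2-fold were called, and 19.8% of calls were unchanged genes. Pairs of libraries within a group differed by a chi-square per degree of freedom of 7.59 or more over 7405 genes. Counts drawn again from the same library would give about 1, and an identical copy less. Of 52143 genes, 27199 were at 0 in every library. Figures were drawn with Python 3.11.15.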

Additional observations from a re-analysis of the deposited data

How the results depend on the processing

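Under every alternative run, the 5 genes had KD estimates below 0 on HFD, 0 of 5 were called with KD on chow, 2 or 3 were called with diet averaged over treatments, and *Fgfr4* was called lower on both diets. Of 315 values of single genes recomputed, 306 kept their direction and their side of the threshold, or moved by less than the spread between libraries. Those that turned were *Ppp2r1b* with KD on chow (0.04 without Chow 3, in a range from -0.21 to 0.04 without single libraries), *Atg12* with diet (0.10 by library totals) and *Cisd1* with diet (0 with library quality weights, -0.02 without Chow/FGFR4 KD 4 and -0.03 without HFD/FGFR4 KD 3, up to 0.10 without another library). Scaling by library totals alone moved the median diet difference of all genes to 0.21 and the split of diet calls from 1903 higher and 1860 lower to 4362 and 481.

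The number of list genes called with KD on HFD, 3, became 1 by library totals, without a filter and with the replicate block, 10 with library quality weights and 0 at an adjusted p under 0.05, and leaving out single libraries gave 0 to 4. With diet 28 became 44 by library totals and 15 at an adjusted p under 0.05, since that threshold is stricter, and 25 to 34 without single libraries. For the other changes the cause was not tested. Libraries with the same replicate number in the 2 groups of a diet had deviations that correlated between -0.29 and 0.24, so the numbers were not taken to pair mice. The replicate block left 0 of the 5 genes called on chow and 2 with diet. Over all genes, calls with KD on HFD ran from 31 at an adjusted p under 0.05 to 776 with quality weights, beside 356, and only 15 to 179 counts stood behind a value of *Tppp*. No value of the 5 genes or *Fgfr4* stood far from the rest of its group in 24 sets of 4 libraries checked for that.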
